A study of Mus musculus with 4 samples.

Results

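A set of 9 leukocyte adhesion genes outside the VCAM1-VLA4 pair was followed in single-cell RNA libraries of mouse cortex: the immunoglobulin-family ligands Icam1 and Icam2, the vascular selectins Selp and Sele, the selectin ligand Selplg, the integrin chains Itgal, Itgb2 and Itgam, and the cell adhesion molecule Alcam. Membership was by gene name, giving 9 of the 32285 genes in the count tables, and the set was drawn up with earlier results of these data known. The 4 libraries came from male C57BL/6N mice aged 10 months, and each pooled the tissue of 4 to 5 mice. One group had sham surgery and an isotype control antibody. The other groups had stroke by dMCAO surgery (distal middle cerebral artery occlusion), and received the isotype control, an antibody to VCAM1 or an antibody to VLA4. Every group received its antibody for 10 weeks, so no group was free of injected antibody. The tissue was sensory cortex with the infarct core and about 2 mm around the lesion, perfused, dissociated, and stained for CD31 (endothelium) and CD45 (leukocytes) with dead cells excluded. The labels do not state which stained fractions were collected. With 1 pooled library per group there was no replicate, so no test between conditions was possible and no p-value is given. All intervals below are 95% counting intervals and leave out variation between mice, pools and library preparations.

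Leukocytes leave the blood in steps. Selectins on endothelium (P-selectin from Selp, E-selectin from Sele) catch passing cells by glycosylated ligands, chiefly PSGL-1 from Selplg. Activated integrins then arrest the cells on endothelial ligands: LFA-1 (Itgal with Itgb2) binds ICAM1 and ICAM2, and Mac-1 (Itgam with Itgb2) binds ICAM1 among other ligands. ALCAM, from Alcam, is bound by CD6 on T cells and by itself. VLA4 binding to VCAM1, the pair that both antibodies block, is a parallel arrest step. In brain endothelium, ICAM2 is known as a constitutive ligand, while ICAM1 and the vascular selectins are known as genes that inflammatory signals through NF-kappaB can switch on. Microglia carry Mac-1 and are known to carry ICAM1 as well.

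The promoters of the inducible members are printed because the Icam1 result below moved alongside NF-kappaB response genes, while the 2 vascular selectins were near 0. They run from 250 bases before to 50 bases after the transcription start in RefSeq on GRCm38.p6, and 5 of the 9 members were matched there. Icam1 lies at chr9:21015690-21015989 on the plus strand, Sele at chr1:164047984-164048283 on the plus strand, and Selp at chr1:164115014-164115313 on the plus strand. Capitals mark matches to GGANNTTCC (an NF-kappaB-type motif), TGACTCA (an AP-1-type motif) and TATAAA, searched on both strands and chosen after the sequences had been seen.
Icam1: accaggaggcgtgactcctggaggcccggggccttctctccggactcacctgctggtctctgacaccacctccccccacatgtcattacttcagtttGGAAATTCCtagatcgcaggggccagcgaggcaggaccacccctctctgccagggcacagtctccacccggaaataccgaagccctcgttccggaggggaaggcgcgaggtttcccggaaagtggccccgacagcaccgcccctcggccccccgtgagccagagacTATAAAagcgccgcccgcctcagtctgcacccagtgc
Sele: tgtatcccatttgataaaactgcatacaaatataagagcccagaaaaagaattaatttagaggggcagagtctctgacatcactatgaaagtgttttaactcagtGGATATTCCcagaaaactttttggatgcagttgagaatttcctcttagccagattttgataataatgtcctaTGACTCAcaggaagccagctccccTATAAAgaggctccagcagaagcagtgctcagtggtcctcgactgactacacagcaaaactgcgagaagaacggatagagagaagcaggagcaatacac
Selp: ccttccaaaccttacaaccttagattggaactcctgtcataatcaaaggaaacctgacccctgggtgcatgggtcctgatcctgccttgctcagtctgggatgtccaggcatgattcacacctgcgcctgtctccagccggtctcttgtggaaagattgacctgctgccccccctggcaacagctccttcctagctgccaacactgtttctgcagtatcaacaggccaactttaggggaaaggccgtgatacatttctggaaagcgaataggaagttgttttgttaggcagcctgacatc
Of the 5 members matched, Icam1 held GGANNTTCC starting 153 bases before the start and TATAAA starting 13 bases after it. Sele held GGANNTTCC 145 bases, TGACTCA 73 bases and TATAAA 49 bases before the start. None of the motifs was found in the windows of Selp, Itgam and Alcam. Among 32851 promoters of the same length, 4.26% held GGANNTTCC, 5.20% TGACTCA and 13.6% TATAAA, so the matches describe these windows and no more.

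After filtering, the sham library held 1516 cells, the stroke isotype library 2832, the anti-VCAM1 library 4662 and the anti-VLA4 library 6209, and every set of 4 values below is in this order. Median depth was 4516.5 to 5466 UMIs (unique transcript molecules) per cell, and kept libraries summed to 9892316 to 33386331 UMIs. The sham and stroke isotype libraries shared 59 cell barcodes, while other pairs shared 1 to 8. In 55 of the 59 the sham copy was larger, with a median of 18156 UMIs against 597. The stroke isotype copies made up 1.94% of the kept stroke isotype cells and 0.793% of their UMIs. The share of the sham copies in the sham library was not computed, but their median lay above that library's median of 5466 UMIs. Leaving out both copies changed several ratios of stroke against sham, as given below. Cells were clustered without the 9 genes and clusters were named from markers that include none of them. The 4 classes with at least 50 cells in every library were endothelial-like (551, 654, 2511 and 3250 cells), microglia-like (689, 1464, 1798 and 2434), border-macrophage-like (112, 188, 57 and 89) and T-cell-like (71, 227, 103 and 187). Defining markers were present in each: none of the 12 endothelial, 12 microglial, 12 border-macrophage or 12 T-cell markers was at 0 in its own class in the sham library. The clusters were named from these same markers, so this is no separate check of the names. The 12 microglial markers were also above 0 in endothelial-like, border-macrophage-like and T-cell-like cells. Levels are given as counts per 1000000 UMIs of the class (CPM), and they are compared between classes and libraries for 1 gene at a time. A lower level in a class cannot be told apart from a different mix of cell states within it, unless clusters are given.

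The 9 genes divided between blood vessel and leukocyte classes. Over all kept cells, 96.7% of 11419 Icam2 UMIs were in endothelial-like cells, whereas 84.6% of 9680 Icam1 UMIs were in microglia-like cells. Microglia-like cells also held 92.1% of Selplg, 92.3% of Itgam and 79.2% of Itgb2 UMIs. Of 893 Itgal UMIs, 51.2% were in T-cell-like cells and 38.5% in unnamed clusters. In the anti-VCAM1 library unnamed clusters held more Itgal than T-cell-like cells, at 53.6% against 42.1%. Alcam had no single home: 48.0% of its 4600 UMIs were in unnamed clusters, 24.2% in endothelial-like and 15.3% in border-macrophage-like cells. That order differed between libraries with the cells each held: in sham 60.8% was in unnamed clusters and 11.7% in endothelial-like cells, and with anti-VLA4 23.3% and 52.4%. Selp, with 4 UMIs, and Sele, with 24, were almost not recorded.

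**Figure D1:**
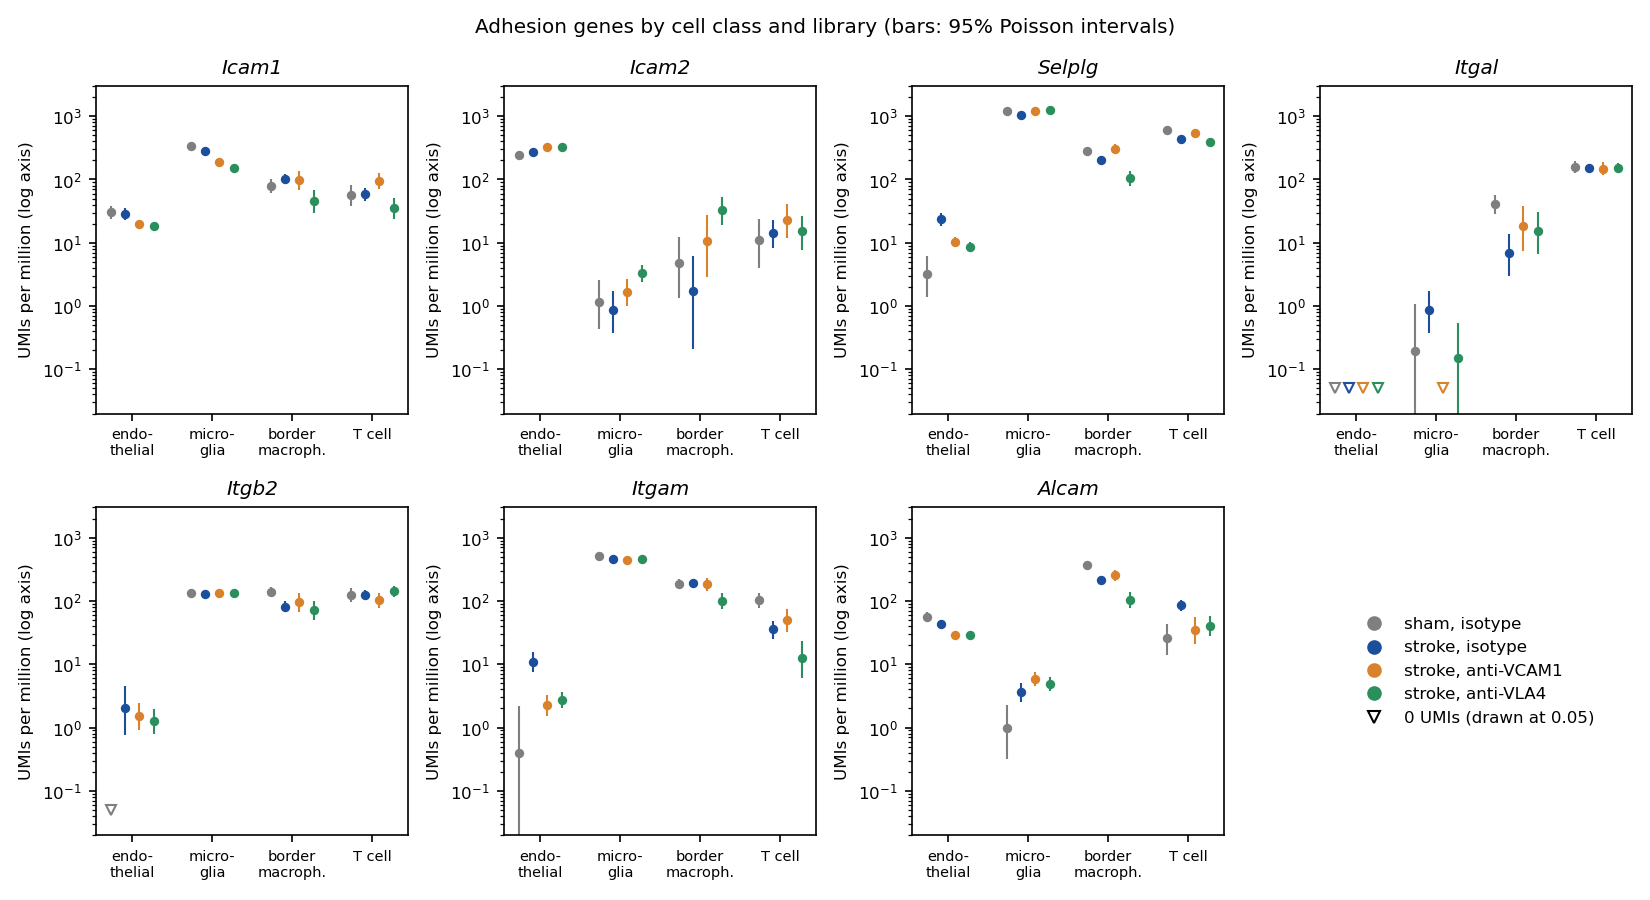
CPM of the class (log axis) for 7 of the genes, by cell class on the horizontal axis and library by colour, with 95% Poisson intervals; open triangles mark 0 UMIs. Icam2 stood highest in endothelial-like cells, Selplg and Itgam in microglia-like cells and Itgal in T-cell-like cells, among these 4 classes and in all 4 libraries, and Icam1 stood highest in microglia-like cells.

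A pair of 1 gene and 1 class was compared when it had at least 20 UMIs over both libraries, and a difference of at least 1.5-fold in the ratio of CPM + 1 was counted. Between stroke with isotype and sham, 8 of 23 pairs passed this size, 4 higher and 4 lower after stroke, where 14.2% of all gene and class pairs did. With anti-VCAM1 against stroke with isotype, 6 of 24 pairs passed, 3 higher and 3 lower, where 13.4% of all pairs did. With anti-VLA4 against stroke with isotype, 12 of 24 pairs passed, 1 higher and 11 lower, where 14.7% of all pairs did (5.34% higher and 9.40% lower). The median log2 ratio over the pairs was -0.06, 0.01 and -0.50 in the 3 comparisons, beside -0.04, 0.003 and -0.004 over all genes. Both antibody comparisons use the same stroke isotype library, so their ratios are not independent of each other.

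**Figure D2:**
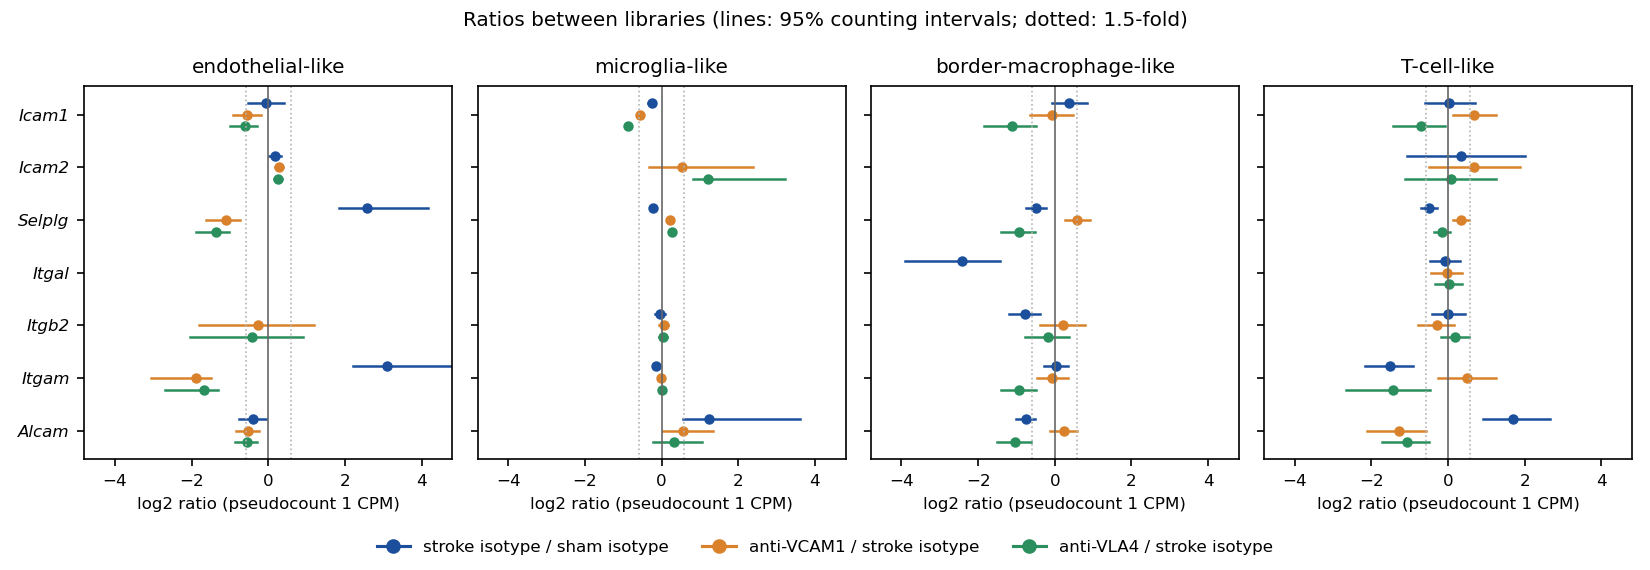
Log2 ratios (pseudocount 1 CPM) of the 7 genes in each class for the 3 comparisons, with 95% counting intervals as lines and 1.5-fold as dotted lines; pairs under 20 UMIs are left out. In microglia-like cells the Icam1 ratio lay at -0.87 with anti-VLA4, while Itgam and Itgb2 lay within 0.15 of 0 in every comparison.

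Icam1, the inducible ligand of LFA-1 and Mac-1, was lower in microglia-like cells of both antibody libraries. It measured 333 CPM (317 to 349), 278 (267 to 289), 188 (180 to 197) and 151 (145 to 158) in the 4 libraries, from 1704, 2575, 1890 and 2018 UMIs. The 4 counting intervals did not overlap, with sham highest and anti-VLA4 lowest. The log2 ratio was -0.26 (-0.35 to -0.17) for stroke against sham, -0.56 (-0.65 to -0.47) in the anti-VCAM1 comparison and -0.87 (-0.96 to -0.79) in that with anti-VLA4. Only the last was past 1.5-fold, and it stayed past it under all 14 alternative settings, from -0.97 to -0.63. Of these, the settings on the UMI minimum and on endothelial-like clusters could not change the ratio. It fell short of 1.5-fold, at -0.51, when cluster shares were held fixed. In this class 5.03% of all genes were past 1.5-fold with anti-VLA4, and among genes with at least 200 UMIs 1.74% were. The ratio with anti-VCAM1 passed 1.5-fold in 2 of the 14 settings.

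The share of microglia-like cells with an Icam1 UMI gave the same order. With each cell thinned to 1000 UMIs it was 21.0%, 18.6%, 12.9% and 11.2%, and without thinning 58.3%, 49.6%, 40.2% and 35.3%, at median depths of 7344, 6131, 5332.5 and 5224 UMIs. In endothelial-like cells, at median depths of 3893, 3809.5, 4098 and 4451.5, the thinned share was 2.80%, 2.58%, 1.56% and 1.49%. The microglia-like share thus lay well above the share in the neighbouring class of the same library.

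Icam1 differed between microglia-like clusters, and the clusters took different shares of the class in each library. Cluster 9, led by Cst7 and Apoe, genes known from reactive microglia, measured 679, 348, 250 and 227 CPM. Cluster 0 measured 414, 351, 291 and 263 CPM. Its leading genes against all other cells included Egr1, Fosb, Atf3 and Fos, all among the dissociation genes read below, and Icam1 itself. Cluster 3 measured 140, 166, 130 and 125 CPM, and cluster 5 measured 263, 365, 177 and 150 CPM. In both, stroke with isotype lay above sham, the other way from the class, from 297 against 96 and 283 against 102 UMIs. Cluster 6 was low in every library, at 79.5, 66.5, 74.8 and 68.1 CPM. The high cluster 0 made up 48.3%, 36.5%, 24.1% and 16.2% of the class, and the low cluster 6 made up 13.8%, 12.6%, 19.2% and 26.7%. Cluster 0 alone held 73.5%, 55.6%, 46.7% and 37.0% of the class's Icam1 UMIs.

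Within clusters, the anti-VLA4 ratio was -0.41 in cluster 0 (-0.55 to -0.29), -0.41 in cluster 3 (-0.63 to -0.19), -1.28 in cluster 5 (-1.56 to -1.01), 0.03 in cluster 6 (-0.33 to 0.41) and -0.61 in cluster 9 (-0.81 to -0.41). Icam1 was therefore lower in 4 of 5 clusters, with cluster 6 level. Cluster 5 was the shallowest, with a median of 2249 UMIs per cell. With every cluster held at its share in the stroke isotype library, the class ratio was -0.51 instead of -0.87 for anti-VLA4 and -0.37 instead of -0.56 for anti-VCAM1. Part of each class difference thus went with the mix of clusters, and part was seen at fixed shares.

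NF-kappaB response genes moved alongside Icam1 in microglia-like cells. Of 13 listed, all compared, 10 were lower by 1.5-fold with anti-VLA4 and none higher, where 5.03% of all genes of the class passed that size (2.68% lower). Their median log2 ratio was -0.68 beside 0.06 over all genes of the class. Tnf, an inflammatory cytokine, measured 234 CPM in stroke with isotype and 104 with anti-VLA4, a log2 ratio of -1.16. Nfkbiz, a nuclear regulator of NF-kappaB, measured 405 and 203 CPM (-0.997), and Nfkbia, which encodes the inhibitor that NF-kappaB itself induces, 667 and 390 CPM (-0.77). The list summed to 2860, 2922, 2339 and 1804 CPM over the 4 libraries. With anti-VCAM1, 2 of the 13 were lower by that size, at a median of -0.39, where 4.1% of all genes passed. After stroke 2 were higher, Il1b and Csf1, at a median of -0.12, where 6.17% passed.

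Genes known to respond to tissue dissociation moved with Icam1 too. Of 16 such genes, 7 were lower by 1.5-fold with anti-VLA4, at a median of -0.56, and 2 with anti-VCAM1, at -0.30, beside the same 5.03% and 4.1% of all genes. After stroke 2 were higher and 1 lower, at a median of -0.33. Their sum was 17714, 14772, 11820 and 10158 CPM in the 4 libraries, the same order as Icam1. Within cluster 0 the sum was 21338.9, 19558.6, 17850.6 and 19324.5 CPM, lowest with anti-VCAM1, while Icam1 there was lowest with anti-VLA4. In clusters 3, 5 and 9 both were lowest with anti-VLA4. The part of the dissociation genes in the Icam1 result was not tested. Over the 20 points of 5 clusters in 4 libraries, log2 Icam1 correlated with the summed NF-kappaB genes at Pearson's r = 0.95 (Spearman's rho 0.89) and with the dissociation genes at r = 0.92 (rho 0.90). These points share libraries, depth and cell states, so the coefficients describe the 20 points only.

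**Figure D3:**
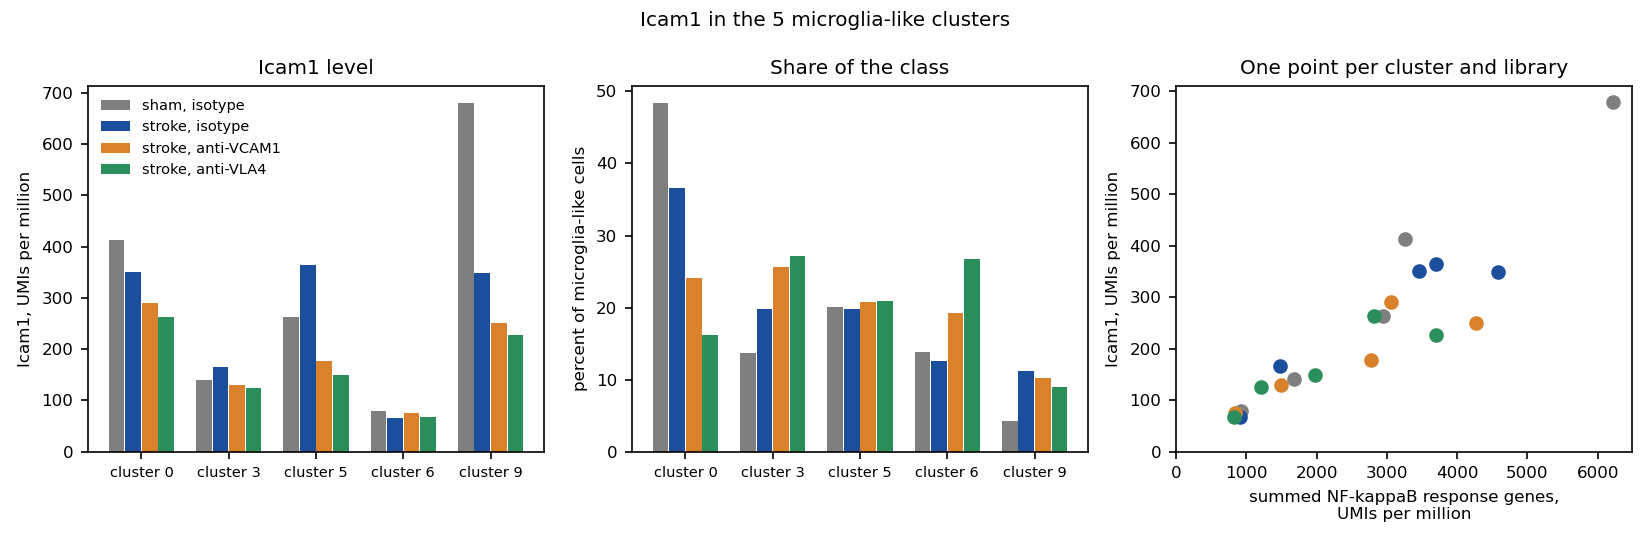
Icam1 in the 5 microglia-like clusters: level in CPM (left), share of the class in percent (middle), and level against the summed NF-kappaB response genes, 1 point per cluster and library (right), coloured by library. Cluster 6 stays between 66.5 and 79.5 CPM and grows from 12.6% of the class in stroke with isotype to 26.7% with anti-VLA4.

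In endothelial-like cells Icam1 was scarce. It measured 30.1 CPM (23.7 to 37.7), 28.8 (23.0 to 35.7), 19.4 (17.1 to 22.1) and 18.4 (16.4 to 20.5), from 76, 84, 240 and 317 UMIs. The stroke and sham values overlapped, and both antibody values lay below the stroke isotype interval. The log2 ratio was -0.06 (-0.53 to 0.41) after stroke, -0.55 (-0.93 to -0.19) under anti-VCAM1 and -0.62 (-0.999 to -0.28) under anti-VLA4, where 9.37%, 11.5% and 13.1% of all genes of the class passed 1.5-fold. The anti-VLA4 ratio passed 1.5-fold in 11 of the 14 alternative settings and the anti-VCAM1 ratio in 2. Few cells carried these UMIs: the 10 highest cells held 59.2%, 48.8%, 26.7% and 27.1% of them. The microglial gene P2ry12 stood in endothelial-like cells at 0.378%, 2.04%, 0.614% and 0.627% of its microglial level, highest in stroke with isotype. Cx3cr1 stood at 0.368%, 2.25%, 0.792% and 0.743%, and Icam1 at 9.04%, 10.4%, 10.3% and 12.2%. The part of microglial transcripts in these Icam1 ratios was not tested.

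Endothelial Icam1 was higher on the venous side, where leukocytes are known to arrest. The venous cluster (cluster 14, led by venous markers) measured 83.5, 64.9, 42.2 and 33.4 CPM, from only 20, 12, 13 and 11 UMIs. The arterial cluster (cluster 2, with Gkn3 and Bmx) measured 20.2, 10.0, 9.20 and 10.0 CPM. Each library thus had more Icam1 in the venous than in the arterial cluster, by values whose intervals did not meet. The venous cluster held 9.26%, 6.73%, 1.79% and 1.60% of endothelial-like cells. With cluster shares held at those of stroke with isotype, the endothelial ratio was -0.39 with anti-VCAM1 and -0.63 with anti-VLA4.

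Icam1 in the 2 smaller leukocyte classes rested on few UMIs. In border-macrophage-like cells, macrophages of the meninges and perivascular spaces, it measured 79.0, 102, 97.5 and 46.4 CPM, and in T-cell-like cells 57.0, 58.5, 94.5 and 35.3 CPM. The anti-VLA4 library was lowest in both. The log2 ratio there was -1.12 (-1.84 to -0.50) in border-macrophage-like cells from 24 against 118 UMIs, and -0.72 (-1.42 to -0.07) in T-cell-like cells from 28 against 66. The first turned to 0.73 when cells were classed one by one from their markers instead of by cluster, and was -0.41 at Leiden resolution 0.5. The second was -0.40 with cells thinned to 1000 UMIs and -0.45 with cells classed one by one. In T-cell-like cells the anti-VCAM1 ratio was 0.68 (0.13 to 1.25) for Icam1 and 0.67 (-0.51 to 1.88) for Icam2, the latter from 12 against 16 UMIs. The Icam1 ratio was under 1.5-fold in 4 of its 14 settings, down to 0.30, and the Icam2 ratio in 2 of 13, down to 0.45. The 12 microglial markers summed to 3806, 1250, 2370 and 543 CPM in T-cell-like cells, also lowest with anti-VLA4 and higher with anti-VCAM1 than in stroke with isotype, and the 12 endothelial markers to 82.7, 86.9, 285 and 364 CPM. The part of either list in these T-cell-like values was not tested. A further cluster (cluster 13) with Cd209a, Plac8 and Mgl2, which carries both dendritic and border-macrophage markers and stayed unnamed, measured 154, 106, 66.5 and 150 CPM.

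Icam2, the constitutive endothelial ligand of LFA-1, showed small differences. In endothelial-like cells it measured 242 CPM (223 to 262), 272 (254 to 292), 330 (320 to 341) and 323 (315 to 332), from 611, 793, 4079 and 5563 UMIs. Both antibody libraries lay above both isotype libraries. The log2 ratio was 0.17 (0.02 to 0.32) after stroke, 0.28 (0.17 to 0.39) in the anti-VCAM1 comparison and 0.25 (0.14 to 0.36) in the anti-VLA4 comparison, and none reached 1.5-fold under any of the 14 settings. The share of cells with a UMI, thinned to 1000 UMIs, was 23.2%, 26.6%, 29.2% and 28.8%, and without thinning 52.8%, 60.4%, 68.4% and 71.3%. In microglia-like cells, which should lack the gene, the thinned share was 0 of 686 and 0 of 1428 cells in the isotype libraries (exact upper bounds 0.536% and 0.258%), 0.113% with anti-VCAM1 and 0.208% with anti-VLA4, and the unthinned share 0.871%, 0.546%, 0.779% and 1.44%.

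Unlike Icam1, Icam2 was higher in the arterial than in the venous cluster, although the intervals of the 2 clusters met in stroke with isotype and anti-VCAM1. The arterial cluster measured 329, 359, 374 and 378 CPM, against 213, 276, 347 and 222 in the venous cluster and 191, 175, 209 and 192 in cluster 7. Cluster 4, at 352, 352, 418 and 411 CPM, grew from 5.81% and 9.63% of endothelial-like cells in the isotype libraries to 22.6% and 23.5% in the antibody libraries. Cluster 7 made up 30.9%, 24.2%, 11.6% and 10.7%. At the cluster shares of stroke with isotype, the Icam2 ratio was 0.17 with anti-VCAM1 and 0.08 with anti-VLA4, smaller than over the whole class.

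**Figure D4:**
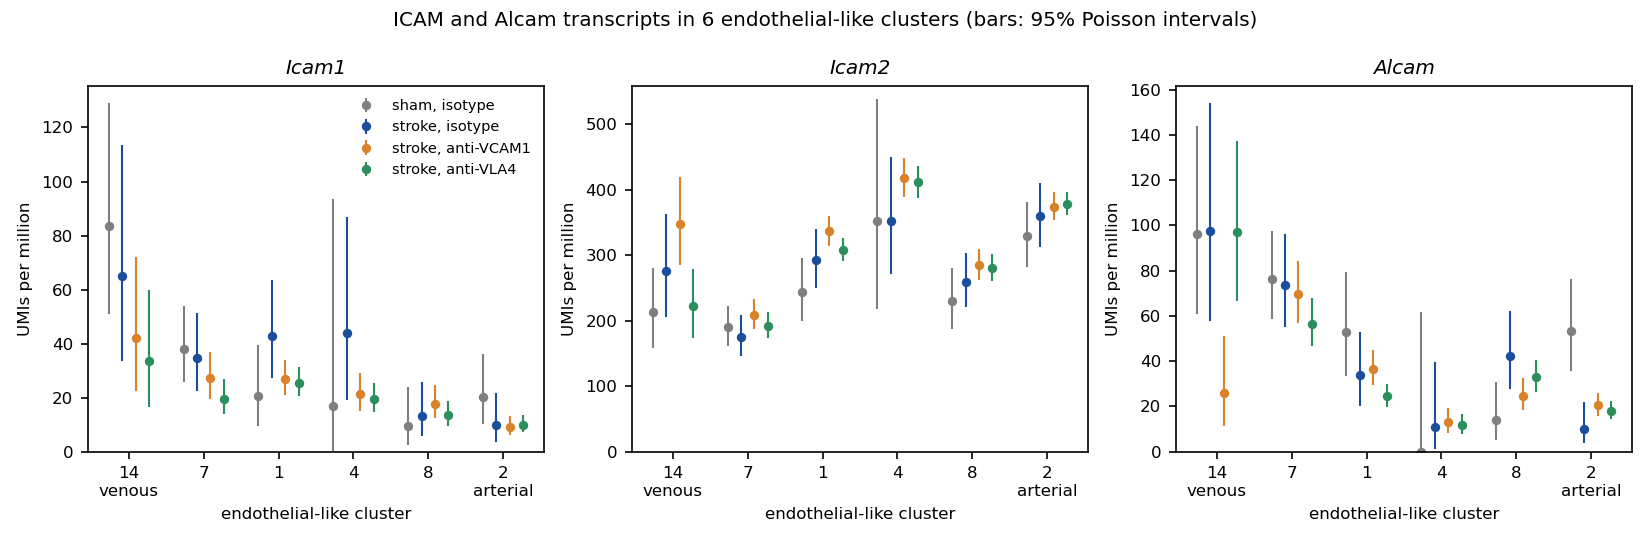
CPM of Icam1, Icam2 and Alcam in 6 endothelial-like clusters (horizontal axis) by library (colour), with 95% Poisson intervals. Icam1 is highest in the venous cluster 14 in all 4 libraries, at 83.5, 64.9, 42.2 and 33.4, whereas Icam2 there is below the arterial cluster 2.

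The 1 higher pair with anti-VLA4 was Icam2 in microglia-like cells, at 0.86 CPM in stroke with isotype and 3.30 with anti-VLA4 (8 and 44 UMIs, log2 ratio 1.21, or 0.29 with a pseudocount of 10 CPM). These levels were 0.317% and 1.02% of the endothelial-like level of the same library. The endothelial gene Cldn5 stood in microglia-like cells at 0.0689% and 0.363% of its endothelial level, and the 12 endothelial markers summed to 49.6, 48.6, 120 and 117 CPM there, with none at 0 in any library. Their part in the Icam2 result was not tested.

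Selp, the endothelial and platelet selectin, had 1 UMI in each library and none in endothelial-like cells. A count of 0 in that class allows up to 3 counts, or 1.19, 1.03, 0.243 and 0.174 CPM. The 4 UMIs lay in 2 cells of cluster 13, 1 of cluster 18 and 1 microglia-like cell. Selp was therefore not detectable in brain endothelium at this depth in any of the 4 groups.

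Sele, the selectin restricted to activated endothelium, had 2, 3, 2 and 17 UMIs over all cells. Of these 24 UMIs, 22 were in endothelial-like cells, in 4 cells. All 17 of the anti-VLA4 library sat in 1 cell of the venous cluster, with 7234 UMIs, 10 of Vwf, 1 of Icam1 and 0 of Vcam1. The venous cluster also held 1 Sele cell in sham and 1 in stroke with isotype, each positive for Vwf, and the remaining endothelial-like Sele cell was in cluster 1 of the anti-VCAM1 library. The other 2 UMIs lay in 1 cell of cluster 13 and 1 B-cell-like cell. With 1 or 2 UMIs in all but 1 of these 6 cells, no level of a group could be compared.

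Selplg, which encodes the selectin ligand PSGL-1, was high and near level in microglia-like cells. It measured 1229, 1048, 1217 and 1262 CPM there, from 6292 to 16827 UMIs. Stroke with isotype was the lowest library, by log2 ratios of -0.23 (-0.28 to -0.18) against sham, and the antibody libraries lay above it by 0.22 (0.18 to 0.25) and 0.27 (0.23 to 0.30). None came near 1.5-fold. The anti-VCAM1 comparison had none of 6 members past 1.5-fold in microglia-like cells, where 4.1% of genes passed, and the stroke comparison had 1 of 5, where 6.17% passed.

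In T-cell-like cells, whose PSGL-1 is known to serve rolling on selectins, Selplg measured 614, 436, 550 and 390 CPM. The log2 ratio was -0.49 (-0.70 to -0.29) after stroke, 0.33 (0.12 to 0.55) under anti-VCAM1 and -0.16 (-0.37 to 0.05) under anti-VLA4. The microglial markers in these cells, at 3806, 1250, 2370 and 543 CPM, stood in the same order as Selplg, and their part was not tested. In border-macrophage-like cells it measured 287, 205, 308 and 106 CPM, with ratios of -0.49, 0.59 and -0.94. A few cells carried the sham and anti-VCAM1 values there, since the 10 highest held 76.7% and 81.2% of the UMIs. Without both copies of the barcodes shared between the isotype libraries, the stroke ratio in border-macrophage-like cells went from -0.49 to 0.86, and with thinned cells the anti-VCAM1 ratio went from 0.59 to -0.14. B-cell-like cells, 15 to 87 per library, measured 166.5, 273, 406 and 57.2 CPM, from only 13, 145, 59 and 13 UMIs. In stroke with isotype and with anti-VCAM1 the 10 highest B-cell-like cells held 91.7% and 98.3% of these UMIs.

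Selplg and Itgam also passed 1.5-fold in endothelial-like cells, where both were low. Selplg measured 3.17, 23.7, 10.5 and 8.65 CPM there, giving log2 ratios of 2.57, -1.11 and -1.36. With the cells marked as doublets kept, these became 1.32, -0.47 and -0.22, and neither antibody ratio was past 1.5-fold. Itgam measured 0.396, 11.0, 2.27 and 2.73 CPM, giving 3.10, -1.88 and -1.68. The stroke isotype library was the highest for both genes. In it, the 10 highest endothelial-like cells for each gene held 84.1% of the Selplg UMIs and 100% of the Itgam UMIs. Microglial genes that are no members stood there in similar proportion to their microglial level: P2ry12 at 2.04% and Cx3cr1 at 2.25%, beside 2.26% for Selplg and 2.41% for Itgam. In the other libraries the same 4 genes stood at 0.0782% to 0.859%. The 12 microglial markers summed to 825, 1135, 1057 and 1009 CPM in endothelial-like cells, with none at 0 in any library. In microglia-like cells they summed to 17363, 16537, 17362 and 16978 CPM. The endothelial sum differed less between libraries than P2ry12, which stood at 0.378%, 2.04%, 0.614% and 0.627% of its microglial level. Apart from P2ry12 and Cx3cr1 the list was not read gene by gene, so its sum does not measure microglial transcripts in this class. The part of microglial transcripts in these 6 called pairs was not tested.

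Itgam, the alpha chain of Mac-1 (CD11b), hardly moved in its main class. Microglia-like cells measured 506, 457, 449 and 460 CPM, with log2 ratios of -0.15 (-0.22 to -0.08) after stroke, -0.03 (-0.09 to 0.04) under anti-VCAM1 and 0.01 (-0.05 to 0.07) under anti-VLA4. The intervals of both antibody ratios held 0. Itgb2, the beta chain that Mac-1 and LFA-1 share (CD18), was as level there, at 133, 130, 135 and 134 CPM and ratios of -0.04, 0.05 and 0.05. Without thinning, 52.7%, 44.7%, 40.3% and 39.1% of microglia-like cells held UMIs of both chains, an order that follows their median depth.

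Itgal, the alpha chain of LFA-1 (CD11a), was level in T-cell-like cells. It measured 160 CPM (128 to 197), 152 (130 to 176), 149 (117 to 186) and 154 (128 to 183), and the 4 intervals overlapped. Its log2 ratios were -0.08 (-0.46 to 0.31), -0.03 (-0.44 to 0.37) and 0.02 (-0.33 to 0.36), so differences of about 1.3-fold either way were within counting error. Itgb2 measured 125, 126, 102 and 142 CPM in T-cell-like cells, with ratios of 0.01, -0.30 and 0.18 and intervals that held 0. UMIs of both LFA-1 chains were found in 33.8%, 24.7%, 18.4% and 17.6% of T-cell-like cells without thinning, at median depths of 5644, 4532, 4720 and 3698.

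Splitting T-cell-like cells by a Cd8a or Cd8b1 UMI changed the picture of Itgal in 1 library. With a Cd8 UMI, Itgal measured 145, 148, 154 and 120 CPM, and without one 176, 158, 137 and 248 CPM. The anti-VLA4 library was the only one where the 2 intervals did not meet, at 93.4 to 151 against 185 to 325. Itgb2 lay in the same direction there, at 120 CPM (93.4 to 151) with a Cd8 UMI and 205 (148 to 276) without, with intervals that met. The same split was read for Selplg, Icam1, Alcam and Itgam. In stroke with isotype the intervals of Selplg did not meet, at 497 CPM (445 to 553) with a Cd8 UMI and 343 (291 to 402) without. Those of Itgam did not meet there either, at 48.2 CPM (33.2 to 67.7) and 15.8 (6.35 to 32.6). The 40 Itgam UMIs came from 9 of 227 cells, and counting intervals leave out differences between cells. Microglial markers summed to 1250 CPM in the T-cell-like cells of this library, and their part in both genes was not tested. Cells without a Cd8 UMI can still be Cd8 cells whose transcript was missed. Outside T cells, Itgal stood in cluster 13 at 106, 92.5, 227 and 146 CPM, was 0 in endothelial-like cells of every library, and had 0 to 8 UMIs in microglia-like cells.

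The integrin pairs that passed 1.5-fold were in the small classes. Itgal in border-macrophage-like cells measured 41.3, 6.93, 18.4 and 15.5 CPM, a stroke ratio of -2.42 (-3.90 to -1.44), but 17 of its 34 sham UMIs came from 1 cell. Itgb2 there measured 140, 81.5, 94.9 and 71.6 CPM, a stroke ratio of -0.77 (-1.19 to -0.37). At Leiden resolution 0.5 these ratios were -0.47 for Itgal and -0.21 for Itgb2, and without both copies of the shared barcodes that of Itgb2 was -0.34, all short of 1.5-fold. Itgam there measured 188, 192, 184 and 101 CPM, a ratio of -0.93 (-1.40 to -0.49) with anti-VLA4, or -0.34 with thinned cells and -0.36 with cells classed one by one. In this class 17.7%, 23.6% and 25.5% of all genes passed 1.5-fold in the 3 comparisons, so such sizes were common.

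Itgam in T-cell-like cells measured 103, 35.5, 50.1 and 12.6 CPM, with ratios of -1.51 (-2.16 to -0.93) after stroke and -1.42 (-2.66 to -0.47) with anti-VLA4. The 10 highest cells held all Itgam UMIs of each library. The 12 microglial markers summed to 3806, 1250, 2370 and 543 CPM in the same cells, in the same order as Itgam and with none at 0 in any library, and their part was not tested. Without both copies of the shared barcodes the stroke ratio was -0.21, and with doublet-marked cells kept the anti-VLA4 ratio was -0.33. Of all genes in T-cell-like cells, 29.6%, 21.8% and 22.5% passed 1.5-fold in the 3 comparisons.

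Alcam was highest outside the named classes. Cluster 13, the unnamed cells with dendritic and border-macrophage markers, measured 1199, 821, 544 and 690 CPM, and cluster 18 measured 726, 136, 307 and 501 CPM. Cluster 18 stayed unnamed, with both neutrophil genes (S100a8 and S100a9) and T-cell genes (Trdc, Trdv4 and Icos) among its 10 leading genes, and held only 12 to 26 cells per library. At Leiden resolution 0.5 a neutrophil-like cluster was named, with only 10, 6, 10 and 4 cells. It measured 984, 330, 569 and 1211 CPM of Alcam. Astrocyte-like cells, 5 to 41 per library, measured 298, 239, 300 and 255 CPM.

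In border-macrophage-like cells Alcam measured 366 CPM (326 to 410), 217 (191 to 245), 256 (207 to 312) and 104 (78.5 to 136). Sham stood above the rest and anti-VLA4 below, with stroke isotype and anti-VCAM1 overlapping. The log2 ratio was -0.75 (-1.004 to -0.51) after stroke, 0.24 (-0.11 to 0.58) under anti-VCAM1 and -1.05 (-1.505 to -0.62) under anti-VLA4. The last was past 1.5-fold in all 14 settings, while the stroke ratio was -0.47 at Leiden resolution 0.5. The class was cluster 11 only. Settings on the UMI minimum, on clusters of other classes and on cluster weights therefore could not change these ratios. Endothelial-like cells carried less Alcam, at 56.6, 42.6, 29.0 and 28.5 CPM, with ratios of -0.40 (-0.77 to -0.05), -0.54 (-0.85 to -0.25) and -0.57 (-0.87 to -0.29). With cluster shares held at those of the control library each of the 3 ratios was -0.23, closer to 0 than over the whole class. Among endothelial-like clusters, cluster 7 carried 76.2, 73.5, 69.6 and 56.6 CPM of Alcam and cluster 4 carried 0, 11.0, 13.1 and 11.6 CPM.

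With anti-VLA4, 4 of 5 members compared in border-macrophage-like cells were lower by 1.5-fold: Icam1, Selplg, Itgam and Alcam. Of all genes in this class 25.5% passed that size and 14.2% were lower by it. With cells classed one by one only Alcam of the 4 stayed past it, at -0.65, against 0.73 for Icam1, -0.02 for Selplg and -0.36 for Itgam. Selplg was also short of 1.5-fold with thinned cells (-0.24) and at Leiden resolution 0.5 (-0.49). Itgb2, the fifth, had a ratio of -0.18 (-0.78 to 0.38). The 12 endothelial markers summed to 59.6, 53.7, 430 and 2136 CPM in that class, with 7, 2, 0 and 0 of them at 0. The endothelial member Icam2 stood there at 4.86, 1.73, 10.5 and 32.9 CPM. Microglial markers summed to 4944, 4924, 5495 and 3493 CPM in the same cells, and the part of either marker list in these 4 differences was not tested.

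In T-cell-like cells Alcam measured 25.7 CPM (14.1 to 43.2), 86.0 (69.8 to 105), 34.7 (20.6 to 54.9) and 40.3 (27.6 to 56.9). Stroke with isotype stood above the other 3 libraries, whose intervals overlapped. The log2 ratio was 1.70 (0.93 to 2.66) after stroke, -1.29 (-2.12 to -0.57) under anti-VCAM1 and -1.08 (-1.72 to -0.50) under anti-VLA4. With cells thinned to 1000 UMIs the stroke ratio was 0.34 and the anti-VLA4 ratio -0.53, both short of 1.5-fold. The 10 highest of 227 cells held 60.8% of the 97 stroke isotype UMIs. The direction was the same with and without a Cd8 UMI, at 65.8 CPM and 117 CPM in stroke with isotype against 21.3 and 30.6 in sham. In microglia-like cells Alcam was low, at 0.98, 3.67, 5.88 and 4.87 CPM, and cluster 9 held 0, 25, 51 and 32 of the 5, 34, 59 and 65 UMIs. Few cells carried them: 1 cell held 41 of the 59 with anti-VCAM1 and 1 cell held 20 of the 65 with anti-VLA4. The 10 highest cells held 98.3% and 84.6% of the UMIs in these 2 libraries. The stroke and anti-VCAM1 and anti-VLA4 values of cluster 9 thus rest on few cells. The stroke ratio in microglia-like cells, 1.24 (0.55 to 3.62), became -0.24 when cells were classed one by one and 0.32 with a pseudocount of 10 CPM.

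The other genes of the adhesion cascade were read from 4 lists with 63 genes, 62 of them in the files: further selectins and selectin ligand enzymes, further integrins and integrin activators, further immunoglobulin-family and junctional genes, and cytoplasmic partners of the ICAMs. In endothelial-like cells 43 could be compared after stroke, and 7 were higher and 0 lower by 1.5-fold, at a median of -0.06, where 9.37% of all genes passed that size (5.01% higher). Of the 7, 3 were in the list of further integrins and integrin activators. The microglial gene P2ry12 stood in this class at 0.378% of its microglial level in sham and 2.04% in stroke with isotype. The part of microglial transcripts in the 7 was not tested. With anti-VCAM1, 0 of 43 were higher and 5 lower at a median of -0.03, and with anti-VLA4 likewise 0 of 43 and 5, at -0.04, where 11.5% and 13.1% of all genes passed, so these counts were near the share over all genes. In microglia-like cells 4 of 43 were higher and 1 lower after stroke, 4 of 46 higher and 0 lower with anti-VCAM1, and 5 of 48 higher and 2 lower with anti-VLA4, with medians of 0.00, 0.09 and 0.04, where 6.17%, 4.1% and 5.03% of all genes passed. None of the genes with at least 200 UMIs in either class passed 1.5-fold.

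Genes with at least 200 UMIs did pass 1.5-fold in the smaller classes, where that size was common. In T-cell-like cells the lists had 2 of 41 higher and 8 lower after stroke, where 29.6% of all genes passed. With anti-VCAM1 they had 4 of 39 and 5, where 21.8% passed, and with anti-VLA4 2 of 40 and 7, where 22.5% passed. Border-macrophage-like cells had 2 of 36 and 6, 2 of 33 and 4, and 9 of 39 and 3, where 17.7%, 23.6% and 25.5% passed. Cd6, the T-cell receptor for ALCAM, measured 101 CPM in sham and 176 in stroke with isotype in T-cell-like cells, a ratio of 0.79 (0.36 to 1.25), and 81.0 with anti-VCAM1, a ratio of -1.11 (-1.63 to -0.63). With anti-VLA4 Cd6 measured 125 CPM, a ratio of -0.49 (-0.86 to -0.14), so stroke with isotype was the highest of the 4 libraries, as for Alcam in this class. St3gal6, a sialyltransferase of selectin ligands, measured 333 CPM in sham and 148 in stroke isotype T-cell-like cells, a ratio of -1.16 (-1.48 to -0.86). Fermt3, the kindlin that activates leukocyte integrins, measured 162 and 104 CPM there, a ratio of -0.64 (-1.05 to -0.22). The microglial markers summed to 3806 and 1250 CPM in the T-cell-like cells of the same 2 libraries, and 29.6% of all genes of the class passed 1.5-fold. The part of the markers in both values was not tested. B4galt1, a galactosyltransferase of the same glycans, measured 226 and 149 CPM in border-macrophage-like cells, a ratio of -0.60 (-0.91 to -0.29).

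Bsg, basigin, which brain endothelium carries at high level, had the largest ratio in both antibody comparisons among the listed genes with at least 200 UMIs that passed 1.5-fold. In border-macrophage-like cells it measured 154 CPM in stroke with isotype, 377 with anti-VCAM1 and 1905 with anti-VLA4, ratios of 1.28 and 3.62. In T-cell-like cells it measured 102, 347 and 364 CPM, ratios of 1.76 and 1.83. The 12 endothelial markers summed to 82.7, 86.9, 285 and 364 CPM in T-cell-like cells, with 4, 5, 0 and 0 of them at 0. Their part in the Bsg values of both classes was not tested.

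The genes most like each member were taken by Pearson's r of log2(CPM + 1) over 16 points, 4 classes in 4 libraries, among genes with at least 200 UMIs. For Icam1 these were Ldlrad4 (r = 0.97) and Whrn (0.96). For Icam2 they were Sptbn1 (0.99) and Inf2 (0.98), and for Selplg N4bp2l1 (0.99) and Kif21b (0.99). Itgal stood nearest Spn, which encodes the leukocyte sialoglycoprotein CD43 (0.99), and Dok2 (0.98). Itgam stood nearest Cx3cr1 and Csf1r, both microglial markers (0.997 and 0.994), and Itgb2 nearest Gng2 and Mir142hg (0.997 and 0.996). Alcam stood nearest Trps1 (0.98) and Cd38 (0.93). For Sele the nearest were 5033406O09Rik (0.91) and Spry4 (0.89) and for Selp Dnah7b (0.51) and Enpp6 (0.50), each resting on 24 and 4 UMIs. The 16 points share libraries and differ mostly by class, so these values describe where genes are expressed.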

How the data were processed

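Single-cell 3' RNA libraries (10x Chromium v3.1), 1 per group and each a pool of 4 to 5 mice, were analysed from the deposited tables of raw UMI counts per gene and barcode. Per the file headers the counts came from Cell Ranger 7.0.1, while the submitters' processing notes list Cell Ranger 6.0.0 and Seurat 4.3.0.1. The build behind the counts is not given in the sources used here. The smallest barcode held 500 UMIs, so cells had been called before deposit. Cells with at least 500 UMIs, 200 genes and at most 10% mitochondrial UMIs were kept. Scrublet (expected rate 0.05, run per library) marked 9, 24, 58 and 124 cells (0.590%, 0.840%, 1.23% and 1.96%) as doublets, and these were removed.

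Cells were clustered with scanpy 1.11.5 and leidenalg 0.10.2 on Python 3.11.15 (2000 variable genes, 30 components, 15 neighbours, resolution 1), leaving out the 9 members and mitochondrial, ribosomal and haemoglobin genes. Clusters were named from fixed markers. UMIs were summed per class and library. CPM carry exact Poisson intervals and ratios conditional binomial intervals at 95%, computed on the counts without the pseudocount of 1 CPM (numpy 2.4.6, scipy 1.17.1, pandas 2.3.3, matplotlib 3.10.9). UMIs were taken as independent molecules. The ratio and calling scripts were tested on simulated data. Free RNA and remaining doublets were not removed, so low values in a class that should lack a gene may hold UMIs of other cells.

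All 9 members were named. The 2 most correlated genes per member were named, and from the adhesion lists those with 200 UMIs and a 1.5-fold difference, up to 4 per class and comparison. The NF-kappaB and dissociation genes named were chosen after their values were seen. The members and lists were chosen with earlier results of these data known. Alternatives were other cell filters, clustering resolution, naming, scaling, thinning, UMI minimum and pseudocount, leaving out the highest cell, and 5 settings added after seeing the data, on shared barcodes and clusters.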

Additional observations from a re-analysis of the deposited data

How the results depend on the processing

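No paired analysis was possible because each group had 1 library, and for the same reason no library could be left out. The count of pairs past 1.5-fold moved by over 1.5 times in 4 of 42 recounts: the stroke count of 8 became 5 at Leiden resolution 0.5 and 3 with cells thinned to 1000 UMIs, the anti-VLA4 count of 12 became 6 with thinned cells, and the anti-VCAM1 count of 6 became 3 without the highest cell of each gene. Thinning left 16 and 17 pairs above the UMI minimum in those comparisons. Median-of-ratios scaling turned the anti-VCAM1 split of 3 higher and 3 lower into 2 and 4. Leaving out both copies of the shared barcodes kept the stroke count at 8 but turned its split of 4 and 4 into 6 higher and 2 lower. Of 968 recomputed ratios, 50 had the opposite sign. In 3 of these a ratio past 1.5-fold changed sign: Alcam after stroke in microglia-like cells to -0.24 and Icam1 with anti-VLA4 in border-macrophage-like cells to 0.73, both with cells classed one by one, and Selplg with anti-VCAM1 in border-macrophage-like cells to -0.14 with thinned cells. Of the 26 pairs past 1.5-fold, 7 stayed past it in the same direction under every setting that gave a value. Some settings could not change a given ratio, and the tallies of ratios here include them. Lifting the UMI minimum left every ratio as it was, as did leaving out clusters of another class. Equal cluster weights did so in border-macrophage-like and T-cell-like cells, each made of a single cluster. Of the ratios other than those 3, 881 stayed within the counting interval and 84 left it; the causes were not tested. Levels left their Poisson interval in 73 of 576 recomputed values, 43 of them with cells classed one by one. The settings on shared barcodes, on endothelial-like clusters 4 and 12, on microglia-like cluster 5 and on equal cluster weights were chosen after seeing the data. Selp and Sele rest on 4 and 24 UMIs, and the border-macrophage-like and T-cell-like values on 57 to 227 cells per library.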
